A study of Mus musculus with 21 samples.

Results

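Disallowed genes are genes that most tissues use but that pancreatic β-cells hold at a low level. The 10 genes followed here were Ldha, Slc16a1, Acot7, Oat, Mgst1, Pdgfra, Igfbp4, Cxcl12, Smad3 and Zfp36l1. They were taken by name, by matching gene symbols to Ensembl identifiers. They were 10 of the 55536 genes counted, and all 10 passed the filter of at least 10 reads over the 21 samples, which left 27229 genes to be tested. Smad3, a transcription factor of TGF-β and activin signalling, was the one disallowed gene that passed the test in HFD against RD islets, where 3.54% of all genes did. Relative to RD islets it fell by 37.0% in HFD islets. Its level in HFD-O304 islets was 1.65-fold that of HFD islets, a comparison in which 11.9% of all genes passed. Neither difference of Smad3 passed within replicates 5 to 7 alone, or with α-cell or pericyte markers added to the fit. Zfp36l1, an mRNA decay factor, fell by 26.8% from HFD to HFD-O304 islets, close to the threshold of the test. The other 8 genes, among them the classical pair Ldha and Slc16a1, did not pass the main test, that of edgeR, in any of the 3 comparisons. DESeq2, the alternative tool, called Mgst1 in HFD-O304 against RD islets at the same threshold, among 727 of all genes. Against HFD islets it called Mgst1, Acot7 and Oat as well, among 4045 of all genes.

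Islets were taken from CBA males kept on regular chow (RD), on high-fat diet (HFD) or on HFD containing 0.8 mg of O304 per g of diet (HFD-O304), where O304 is a small molecule that activates AMPK, the kinase that senses cellular energy. The diets began at 10 weeks of age and the mice were 20 weeks old when islets were isolated, and the feeding period is given as 9 weeks in the study's methods and as 10 weeks in its results. The labels name no transgene or targeted allele in any group, and each sample was RNA of 150 hand-picked islets drawn from a pool of 5 mice, so that differences between single animals were averaged within a sample. RNA was sequenced from 7 samples per group, and the sample titles were followed for HFD-O304 replicate 1, whose diet field reads HFD. The unit is a count of read pairs per gene, and a normalized count is that number divided by the size factor of its library. Read pairs on genes ranged from 13809266 in HFD-O304 replicate 2 to 48922569, with group medians of 35836600 (RD), 38765944 (HFD) and, for HFD-O304, 40527197. Ins1 and Ins2, the insulin genes that define β-cells, held 46.9% of the length-scaled signal of RD islets. Markers of 10 other cell types or states were measured as well, and none was at 0 in all samples. The summed normalized count of 6 acinar genes ran from 139 to 229162 over the samples, and edgeR and DESeq2 called 0 of them in each comparison, with 0 at an unadjusted p under 0.05. HFD replicate 7 stood apart from the other HFD samples in its markers of dividing cells, with a mean log2 level of 6.4 against 7.5 to 8.8, and in its α-cell markers, with 10.8 against 9.8 to 10.3. HFD-O304 replicate 4 stood apart from its group in the mean log2 level of fibroblast markers (8.41 against 6.09 to 7.07), of duct markers (9.56 against 8.69 to 9.001) and of macrophage markers (8.07 against 7.58 to 7.78).

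A β-cell couples glucose to insulin release by sending almost all pyruvate into its mitochondria. Lactate dehydrogenase A would divert pyruvate to lactate, and the monocarboxylate transporter encoded by Slc16a1 would let pyruvate and lactate from the blood enter and trigger insulin release without glucose, which is why both are kept low. Other disallowed genes encode growth factor receptors and ligands, enzymes of lipid, amino acid and detoxification pathways, and regulators of transcription and mRNA decay. Their low expression is set by chromatin marks and, for Slc16a1, by the microRNAs of the miR-29 family.

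The first question was how low the 10 genes were in RD islets. In TPM, a unit that scales read counts by transcript length and by library, Oat had the highest mean level with 14.9 ± 1.18 (SD, n = 7). It was followed by Zfp36l1 with 6.69 ± 1.21, Ldha with 5.58 ± 0.442 and Acot7 with 3.85 ± 0.304. The middle of the order held Igfbp4 at 2.10 ± 0.371, Smad3 at 2.00 ± 0.357 and Mgst1 at 1.78 ± 0.349. Cxcl12 had 0.622 ± 0.0608 TPM, Slc16a1 0.463 ± 0.0846 and Pdgfra 0.0120 ± 0.0156. Of the 9 steps in this order, 4 joined genes whose RD ranges overlapped. The higher gene was above the lower one in 5 of 7 samples for Zfp36l1 and Ldha, in 4 for Igfbp4 and Smad3 and in 5 for Smad3 and Mgst1, but in all 7 for Cxcl12 and Slc16a1. At each of the other steps every RD sample of the higher gene lay above every RD sample of the lower one. The median of all 27229 genes was 1.39 TPM, so that 7 of the disallowed genes lay above it on average. These 7 were the ones with at least 1 TPM, as were 14643 of the 27229 genes. The 27229 include genes with as few as 10 reads over the 21 samples. These are levels of whole islets, which hold other cell types as well, so the levels within β-cells were not measured.

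Levels of partner genes were compared on the same scale. Ldhb, the other lactate dehydrogenase subunit of somatic tissues, had 10.5 ± 1.94 TPM in RD islets, and Ldha made up 35.1% ± 5.56 (SD, n = 7) of the summed TPM of both genes. This share was 41.8% ± 7.17 in HFD and 36.4% ± 3.89 in HFD-O304 islets, with overlapping ranges. Bsg and Emb, which encode chaperones that bring monocarboxylate transporters to the cell surface, had 481 ± 17.3 and 71.9 ± 3.91 TPM. The transporters themselves were low, with 0.70 ± 0.0846 TPM for Slc16a7 and 0.123 ± 0.0369 for Slc16a3 beside the 0.463 of Slc16a1. Hk1, a hexokinase of high glucose affinity, had 2.31 ± 0.154 TPM.

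**Figure D1:**
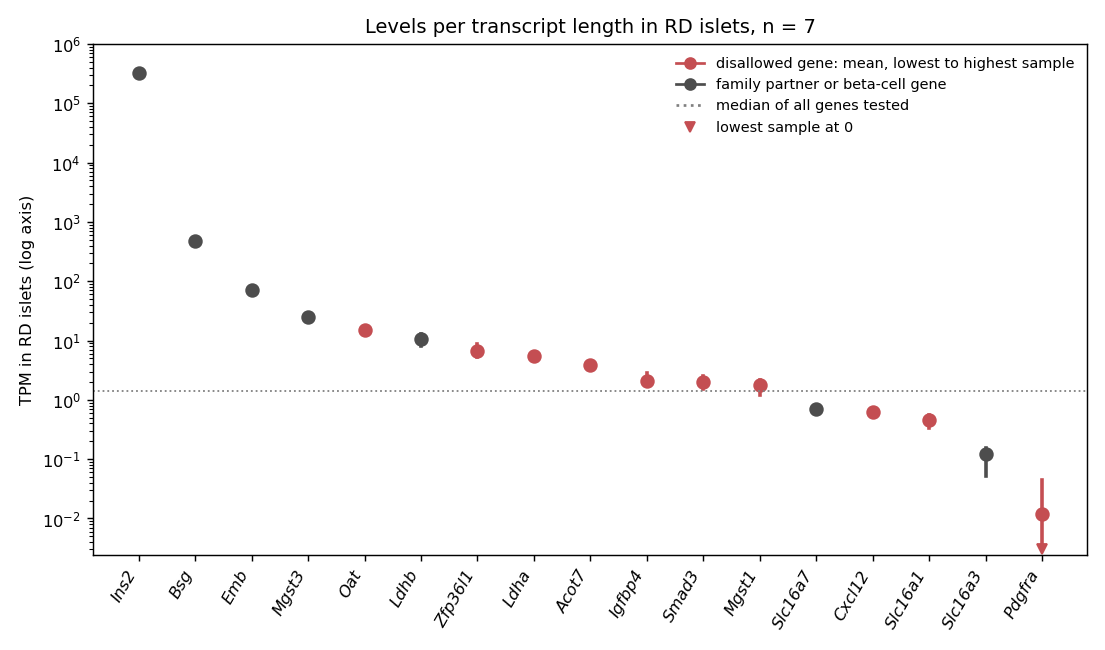
Mean TPM in RD islets (log axis) of the 10 disallowed genes (red) and of 7 partner or β-cell genes (grey), with a line from the lowest to the highest of 7 samples. The disallowed genes run from Oat at 14.9 TPM to Pdgfra at 0.0120 TPM, whose lowest sample was at 0, and the dotted line marks the median of all genes tested, 1.39 TPM.

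Each gene was then compared between the diets with edgeR's quasi-likelihood test, and a change was called at an adjusted p under 0.01 over all genes. In HFD against RD islets 1 of the 10 disallowed genes was called (Smad3), where 3.54% of all genes tested were (1.54% downwards). The median log2 fold change of the 10 was 0.12, beside -0.0044 for all genes, with 8 genes above and 2 below 0. In HFD-O304 against HFD islets 2 of the 10 were called, Smad3 upwards and Zfp36l1 downwards, where 11.9% of all genes were (5.08% upwards and 6.79% downwards), and the median was 0.13 beside 0.027 for all genes with 5 genes on either side of 0. Of HFD-O304 against RD, edgeR called 0 of the 10, where it called 1.31% of all genes (0.903% downwards). At an adjusted p under 0.05 the count was 1 of the 10 beside 7.89% of all genes for HFD vs RD, 2 beside 2.88% for HFD-O304 vs RD and 5 beside 18.9% for HFD-O304 vs HFD. In HFD-O304 vs RD 4 of the 10 had an unadjusted p under 0.05, as did 14.4% of all genes, DESeq2 called 1 of the 10 (Mgst1), and the median was 0.059 beside 0.0078. The comparisons share groups, the HFD samples serving in both calls of Smad3, so they are not independent of each other. In bulk RNA, fewer cells of a type and less RNA per cell cannot be told apart, and this holds for every difference given here.

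**Figure D2:**
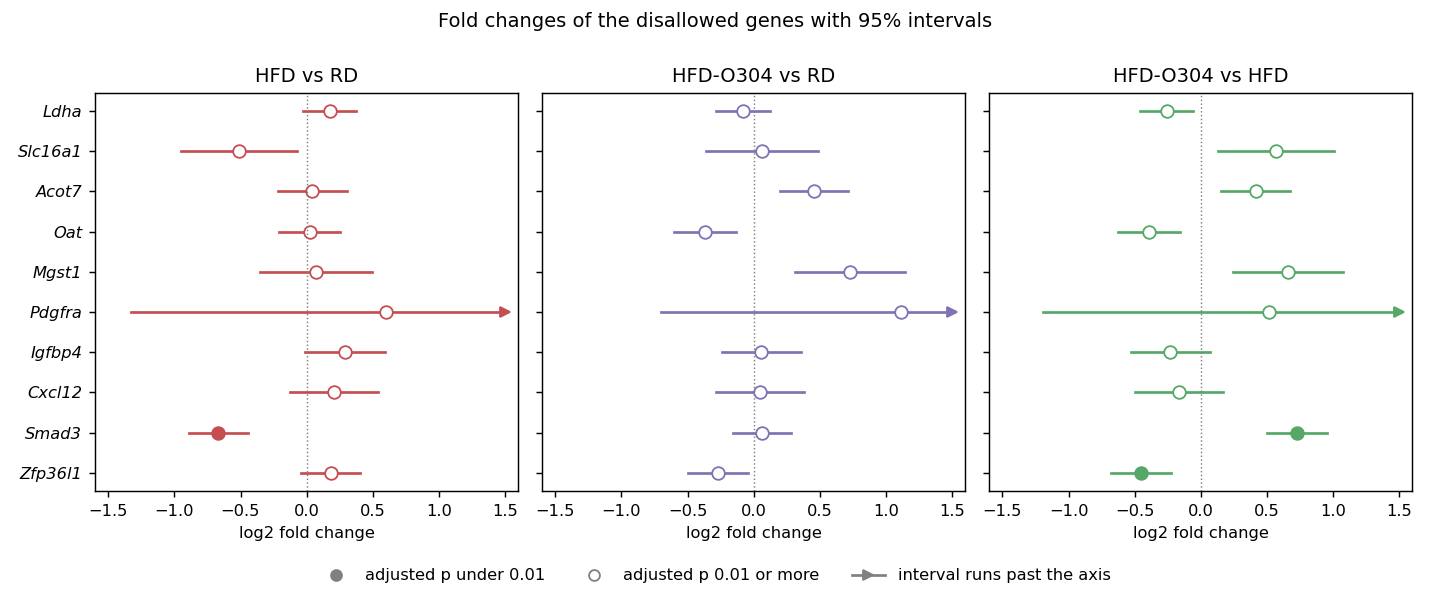
Log2 fold changes (x axis) of the 10 disallowed genes in the 3 comparisons, with 95% intervals, where filled points have an adjusted p under 0.01. Smad3 is filled at -0.67 (HFD vs RD) and at 0.73 (HFD-O304 vs HFD), Zfp36l1 at -0.45 (HFD-O304 vs HFD), and the intervals of Pdgfra run past the axis.

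Ldha encodes the subunit that favours the step from pyruvate to lactate. The gene lies at chr7:46841475-46855627 on the plus strand (GRCm38, GENCODE M21, the coordinates used for all genes here). Its normalized counts (lowest, median, highest) were 277, 298 and 358 in RD, 299, 369 and 417 in HFD, and 256, 288 and 381 in HFD-O304 islets. The groups overlapped throughout, although every HFD sample lay above the RD median. The log2 fold change was 0.18 in HFD vs RD (SE 0.098, 95% interval -0.026 to 0.38, adjusted p = 0.325) and -0.26 in HFD-O304 vs HFD (SE 0.098, interval -0.46 to -0.056, adjusted p = 0.0680), and neither passed the test. Between HFD-O304 and RD it was -0.082 (adjusted p = 0.785). Of all distinct stretches of 50 bases in its transcripts 9.03% also occur in other genes. Reads that map to several places were not counted, so the level of Ldha may read low, by an amount that was not measured.

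Slc16a1, at chr3:104638668-104658462 on the plus strand, had few reads, 698 over the 21 samples. Its normalized counts were 25.8, 36.3 and 41.5 in RD, 20.02, 22.7 and 31.7 in HFD, and 16.8, 34.0 and 50.7 in HFD-O304 islets. No HFD sample reached the RD median and 4 HFD samples lay below the lowest RD sample, but the ranges overlapped. Fitted over all samples, the log2 fold change was -0.51 in HFD vs RD (SE 0.21, interval -0.95 to -0.070, adjusted p = 0.158) and 0.57 in HFD-O304 vs HFD (SE 0.21, interval 0.13 to 1.01, adjusted p = 0.0619), and neither passed the test. HFD-O304 and RD differed by 0.062 (adjusted p = 0.942). Without HFD-O304 replicate 3, the lowest sample of its group, the second value was 0.70 with an adjusted p of 0.00961. The values of Ldha and Slc16a1 had opposite signs in both comparisons. With group means removed, the Pearson r of this pair was -0.0042 over the 21 samples, given as a description.

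The promoters of both genes were searched for motifs. Among 32851 RefSeq promoters of the same length (250 bases before to 50 after a start site, GRCm38.p6), the core of the hypoxia response element, ACGTG, is found on either strand of 19.6%, and of 3 of the 10 disallowed genes (Ldha, Slc16a1 and Oat). The E-box CACGTG, which holds ACGTG on both strands and is counted there as well, is found in 7.15% of promoters and in 2 of the 10 genes, Ldha and Slc16a1. The Ldha promoter at chr7:46845554-46845853 (plus strand), whose start site lies 4329 bases inside the Ensembl gene, held 2 E-boxes, 5 matches to ACGTG and 3 GC boxes (GGGCGG on either strand), and the Slc16a1 promoter at chr3:104638414-104638713 (plus strand) held 1, 3 and 1. Both are shown 5′ to 3′ because they carry the motif shared by the pair, which is in capitals together with the GC boxes, and a match is a description and not evidence of binding.
Ldha promoter: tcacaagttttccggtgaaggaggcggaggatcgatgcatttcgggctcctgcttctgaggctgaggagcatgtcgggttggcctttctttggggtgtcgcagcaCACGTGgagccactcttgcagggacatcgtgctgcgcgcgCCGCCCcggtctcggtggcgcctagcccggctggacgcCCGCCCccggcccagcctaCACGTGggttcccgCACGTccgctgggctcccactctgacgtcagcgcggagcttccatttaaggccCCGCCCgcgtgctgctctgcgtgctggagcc
Slc16a1 promoter: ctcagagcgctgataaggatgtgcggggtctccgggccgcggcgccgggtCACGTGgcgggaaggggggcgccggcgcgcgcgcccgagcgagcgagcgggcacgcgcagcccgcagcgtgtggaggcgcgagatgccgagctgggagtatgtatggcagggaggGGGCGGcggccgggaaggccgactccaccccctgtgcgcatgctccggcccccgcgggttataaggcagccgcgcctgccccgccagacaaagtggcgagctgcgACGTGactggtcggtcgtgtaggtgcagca

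The miR-29 microRNAs, known regulators of Slc16a1 in β-cells, share the seed in capitals (bases 2 to 8), and the one match to it in the 3′ region of Slc16a1 lies at chr3:104655788-104655807, in capitals below. Seed matches were found in 4 of the 10 disallowed genes (Igfbp4 and Pdgfra with 2, Slc16a1 and Zfp36l1 with 1) and in 13.6% of 16057 genes searched, with no measure of the microRNAs themselves in these libraries.
miR-29a-3p: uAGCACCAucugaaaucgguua
miR-29b-3p: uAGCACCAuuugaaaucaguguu
miR-29c-3p: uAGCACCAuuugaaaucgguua
Slc16a1 site: tctaccagTGGTGCTcagtg

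Other genes of pyruvate and lactate handling made a list of 17. In HFD vs RD 4 of the 17 fell and none rose by the edgeR test, the 4 being Slc16a7 (log2 -0.61, adjusted p = 0.00291), Emb (-0.24, 0.00329), Pdk4 (-0.69, 0.00448) and Pcx (-0.53, 0.000485). Slc16a7 encodes a high-affinity pyruvate carrier, Pdk4 a kinase that shuts pyruvate dehydrogenase, and Pcx the enzyme that carboxylates pyruvate. In HFD-O304 vs HFD 3 rose, Slc16a7 (0.78, 5.54e-05), Emb (0.36, 8.52e-06) and Pdk4 (1.59, 2.16e-08), and 2 fell, Pdha1 (-0.22, 0.0077) and Pdk3 (-0.31, 0.00448). Pdk4 was also the one gene of the list that changed in HFD-O304 vs RD, by 0.91 (adjusted p = 0.000401). Ldhb differed by -0.22 in HFD vs RD (adjusted p = 0.301) and by 0.032 in HFD-O304 vs HFD (0.906), and Slc16a3 by -0.034 (0.976) and -0.22 (0.710).

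**Figure D3:**
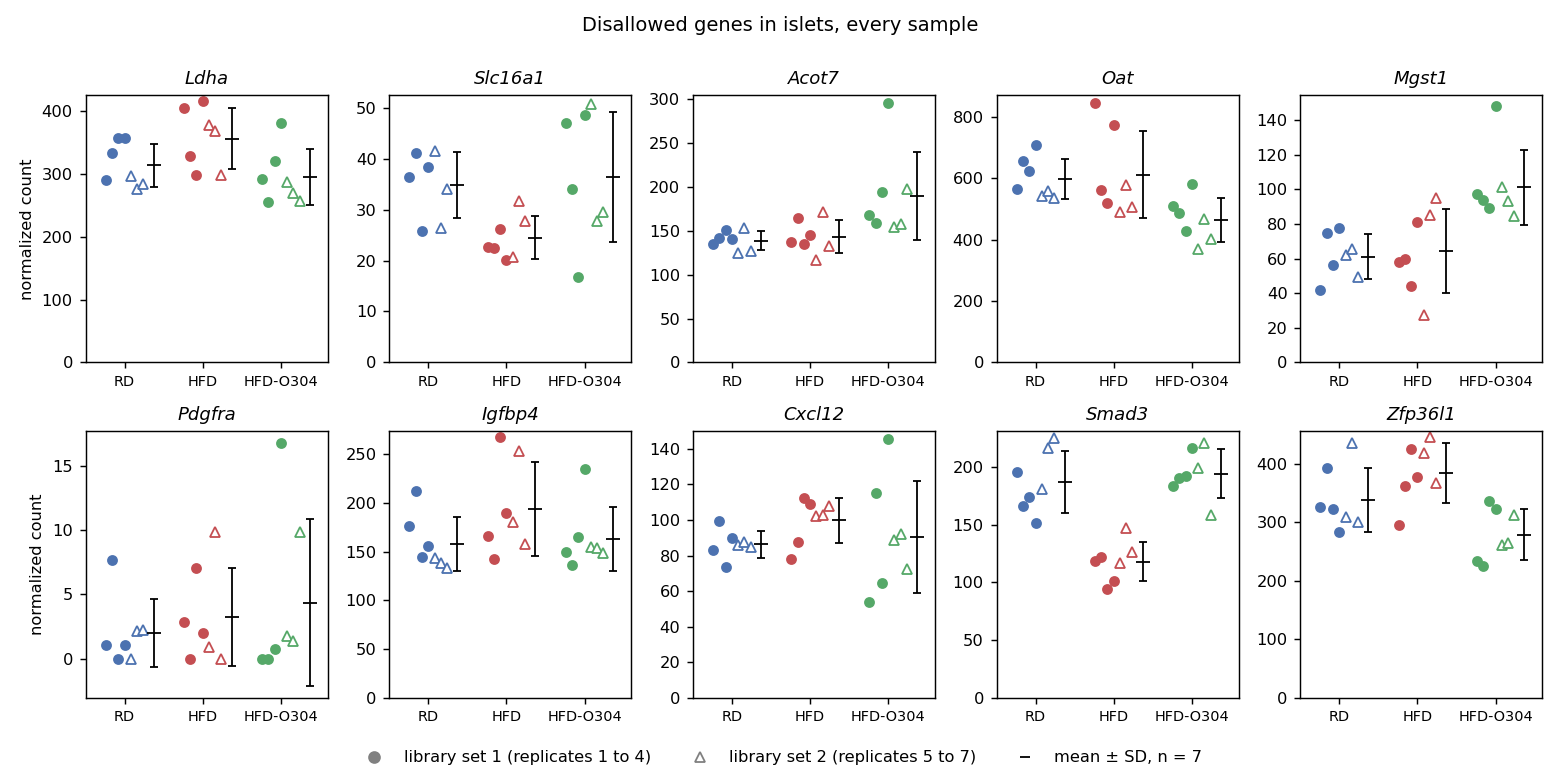
Normalized counts (y axis) of the 10 disallowed genes in each of 21 samples by group, with filled circles for replicates 1 to 4, open triangles for replicates 5 to 7 and the mean ± SD of 7 samples beside them. Smad3 in HFD islets (94.4 to 147) lies below both other groups, Acot7 and Mgst1 in HFD-O304 islets lie above RD, and 1 HFD-O304 sample stands high in Acot7 (296), Mgst1 (148) and Igfbp4 (235).

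Acot7, at chr4:152178134-152271855 on the plus strand, encodes a cytosolic enzyme that splits long-chain acyl-CoA. Its normalized counts were 125, 141 and 153 in RD, 117.1, 137 and 171 in HFD, and 155, 168 and 296 in HFD-O304 islets. Every HFD-O304 sample was above every RD sample and above the HFD median, while RD and HFD overlapped. In HFD-O304 vs RD the log2 fold change was 0.46 (SE 0.13, interval 0.20 to 0.71, adjusted p = 0.0455) and in HFD-O304 vs HFD 0.41 (SE 0.13, interval 0.15 to 0.67, adjusted p = 0.0202), both short of the threshold of 0.01, and in HFD vs RD 0.042 (adjusted p = 0.907). Groups without overlap were found for 2 of the 10 genes in HFD-O304 vs RD, Acot7 and Mgst1, and for 1.56% of all genes. Without HFD-O304 replicate 4, the highest sample, the values were 0.31 (adjusted p = 0.121) and 0.27 (0.0681). Of 11 other acyl-CoA thioesterases, Acot13, a mitochondrial member, fell in HFD vs RD (-0.32, adjusted p = 0.00718) and rose in HFD-O304 vs HFD (0.53, 9.53e-06). In the latter comparison Acot9 (-0.61, 0.000188) and Acot11 (-0.49, 0.000396) fell.

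Oat, at chr7:132557478-132576398 on the minus strand, encodes the mitochondrial aminotransferase that links ornithine to glutamate and proline. The normalized counts were 535, 567 and 709 in RD, 489, 563 and 847 in HFD, and 369, 466 and 583 in HFD-O304 islets. HFD-O304 samples were low, 6 of 7 below the lowest RD sample and 5 of 7 below the lowest HFD sample, but the highest reached into both other groups. On the log2 scale, the fold change was 0.022 in HFD vs RD (SE 0.11, adjusted p = 0.948), -0.37 in HFD-O304 vs RD (SE 0.11, interval -0.60 to -0.13, adjusted p = 0.0850) and -0.39 in HFD-O304 vs HFD (SE 0.11, interval -0.63 to -0.16, adjusted p = 0.0154). The last passed 0.01 when HFD replicate 5 (-0.44, 0.00866), HFD replicate 7 (-0.43, 0.00826) or HFD-O304 replicate 4 (-0.46, 0.00517) was left out.

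The genes around Oat, 13 tested of a list of 14 for ornithine, arginine and proline, moved in both directions. In HFD vs RD Pycr1, the last enzyme of proline synthesis, rose (0.69, adjusted p = 0.000779) and Arg1 (-0.56, 0.00287) and Aldh4a1 (-0.35, 0.00158), enzymes of arginine and proline breakdown, fell. In HFD-O304 vs HFD 5 fell and 3 rose. Those that fell were Pycr1 (-1.17, 1.38e-07), Aldh18a1 (-0.52, 0.000119), Asl (-0.35, 0.00019), Srm (-0.50, 0.00461) and Sat1 (-0.39, 0.000892). Those that rose were Arg1 (0.63, 0.000197), Aldh4a1 (0.30, 0.00177) and Ass1 (1.41, 0.000131), and Asl was also the one gene called in HFD-O304 vs RD (-0.39, 0.000464).

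Mgst1, at chr6:138140316-138156755 on the plus strand, encodes a membrane-bound glutathione transferase. Its normalized counts were 41.6, 62.3 and 77.9 in RD, 27.4, 59.8 and 94.7 in HFD, and 84.5, 94.0 and 148 in HFD-O304 islets. As for Acot7, every HFD-O304 sample was above every RD sample, and 3 of 7 were above the highest HFD sample. The log2 fold change was 0.73 in HFD-O304 vs RD (SE 0.20, interval 0.31 to 1.14, adjusted p = 0.0458) and 0.66 in HFD-O304 vs HFD (SE 0.20, interval 0.25 to 1.07, adjusted p = 0.0205), the largest of the 10 genes after Smad3 in the second case. HFD and RD differed by 0.069 (adjusted p = 0.904). DESeq2 gave adjusted p of 0.00879 and 0.00666, and in HFD-O304 vs HFD it also called Acot7 (0.00845) and Oat (0.0062). The test of HFD-O304 vs HFD passed 0.01 without HFD replicate 7 (0.78, 0.00581), and missed 0.05 without HFD-O304 replicate 4 (0.54, 0.0610).

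Some duct cell markers moved in the same direction as Mgst1 and Acot7. Among 5 duct markers, 3 rose in HFD-O304 vs HFD, with Krt19 (1.15, adjusted p = 8.14e-05) and Cftr (2.68, 0.000879) among them, and Krt19 also rose in HFD-O304 vs RD (1.05, 0.00164). Cftr was near the limit of detection, with a mean of 0.024 TPM in HFD islets. In HFD-O304 islets its mean was 0.17 TPM, with samples from 0.058 to 0.62. The more abundant Krt7 (-0.20, 0.123) and Spp1 (-0.33, 0.138) had values below 0 in HFD-O304 vs HFD and did not pass the test. The summed normalized count of the 5 markers ranged from 7957 to 10357 for RD, from 9424 to 14172 for HFD and from 9083 to 11359 for HFD-O304. The mean log2 level of duct markers gives Cftr the same weight as Krt7. With this mean as a covariate, Mgst1 differed by 0.18 in HFD-O304 vs HFD (adjusted p = 0.753) and Acot7 by 0.0071 (0.988). With fibroblast markers as the covariate Acot7 differed by 0.57 (0.00305), past the threshold. The duct covariate fit, chosen after the data were seen, gave -0.52 for Ldha (0.0081), which then passed the test. Of the other glutathione transferases, 18 tested of 20, Gsto2 rose in HFD vs RD (1.79, 2.05e-07) and fell in HFD-O304 vs HFD (-1.86, 7.16e-09). Gstm1 (-0.55, 0.00421), Gstm2 (-0.53, 0.000256) and Gstm7 (-0.50, 0.0099) fell in HFD vs RD. For HFD-O304 vs HFD Gstm1 (1.07, 3.72e-07), Gstm2 (0.41, 0.000798) and Gstt1 (0.62, 0.000169) rose, and Mgst3 (-0.34, 0.000511) and Gstm5 (-0.31, 0.00951) fell, while Mgst2 had an interval too wide to place it (log2 -1.16, SE 1.01).

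Pdgfra, at chr5:75152292-75198215 on the plus strand, encodes the PDGF receptor of mesenchymal cells and was near the limit of detection. It had 69 reads over the 21 samples, with 2 samples at 0 in each group. The highest normalized counts were 7.65 (RD), 9.83 (HFD) and 16.8 (HFD-O304), and the medians 1.07, 2.00 and 1.39. The groups overlapped almost completely. At this depth no difference was detectable, and the log2 fold changes of 0.60 (SE 0.94), 1.12 (SE 0.88) and 0.52 (SE 0.83) in the order HFD vs RD, HFD-O304 vs RD and HFD-O304 vs HFD had adjusted p of 0.799, 0.630 and 0.755. Pdgfrb, the related receptor of pericytes, had 7.64 ± 0.973 TPM in RD islets and fell by 0.96 on the log2 scale in HFD-O304 vs HFD (adjusted p = 5.04e-06), the one gene called among 4 ligands and this receptor.

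Igfbp4, at chr11:99041244-99054392 on the plus strand, encodes a secreted protein that binds insulin-like growth factors. The normalized counts were 133, 144 and 212 in RD, 142, 180 and 267 in HFD, and 136, 154 and 235 in HFD-O304 islets. All 3 groups overlapped. Fitted over all samples, the log2 fold change was 0.29 in HFD vs RD (SE 0.15, interval -0.0092 to 0.59, adjusted p = 0.258) and -0.23 in HFD-O304 vs HFD (SE 0.15, interval -0.53 to 0.067, adjusted p = 0.315). HFD-O304 and RD differed by 0.058 (adjusted p = 0.918).

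Igfbp4 varied from sample to sample with the fibroblast markers and with markers of some other cell types. With group means removed, its log2 level and the mean of 6 fibroblast markers had a Pearson r of 0.74 over 21 samples (permutation p = 0.00042, adjusted p = 0.0462 over 110 pairs of a disallowed gene and a marker list). Spearman's rho was 0.62 (permutation p = 0.00456, adjusted p = 0.163), r without the 2 samples farthest from the median was 0.64, and within replicates 1 to 4 and 5 to 7 it was 0.77 and 0.64. This pair was the only one of the 110 past an adjusted p of 0.05 by Pearson's r, and none was by both measures. The r and rho of Igfbp4 were 0.60 and 0.67 with duct markers and 0.63 and 0.56 with Schwann cell markers. With pericyte and stellate cell markers they were 0.47 and 0.62. By rho the duct markers were thus above the fibroblast markers (permutation adjusted p = 0.108 for duct markers). The fibroblast markers themselves were above 0 in HFD vs RD for 6 of 6 genes, none called by edgeR or DESeq2 and 5 at an unadjusted p under 0.05, and below 0 in HFD-O304 vs HFD for 6 of 6, with Col3a1 (-1.45, adjusted p = 0.000528) and Col1a2 (-0.67, 0.00936) called. With the fibroblast covariate Igfbp4 differed by 0.028 in HFD vs RD (adjusted p = 0.955) and by 0.059 in HFD-O304 vs HFD (0.854).

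Of the IGF axis, 11 genes tested of 13, Igf1r, the receptor, fell in HFD vs RD (-0.40, adjusted p = 0.0018) and rose in HFD-O304 vs HFD (0.45, 0.000119). Igf2 also rose in the latter comparison (1.30, 0.00546). Genes of binding proteins fell there, namely Igfbp3 (-0.67, 6.56e-06), Igfbp5 (-0.82, 5.15e-05), and Igfbp7 (-0.20, 0.00493), as did Pappa2 (-1.35, 8.84e-06), a protease that cuts binding proteins, and Stc2 (-0.49, 0.00213), an inhibitor of such proteases.

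Cxcl12, at chr6:117168535-117181367 on the plus strand, encodes the chemokine that binds Cxcr4. Its normalized counts were 73.8, 85.7 and 99.5 in RD, 77.9, 102.6 and 112.5 in HFD, and 54.1, 89.0 and 146 in HFD-O304 islets. HFD-O304 samples spread over both sides of the other groups, 2 above the highest RD sample and 3 below the lowest. On the log2 scale, the fold change was 0.21 in HFD vs RD (SE 0.16, adjusted p = 0.521) and -0.16 in HFD-O304 vs HFD (SE 0.16, adjusted p = 0.573), and that of HFD-O304 vs RD 0.047 (adjusted p = 0.944). Dpp4, a protease that inactivates the chemokine, rose in HFD-O304 vs RD (0.32, adjusted p = 0.000446) and vs HFD (0.44, 6.82e-07), and Ackr3, its scavenger receptor, fell vs HFD (-0.88, 0.000159).

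Smad3, at chr9:63646767-63757994 on the minus strand, carries signals of TGF-β and activin receptors to the nucleus. The normalized counts were 152, 181 and 225 in RD, 94.4, 118.995 and 147 in HFD, and 158, 192 and 221 in HFD-O304 islets. No HFD sample reached the lowest RD or HFD-O304 sample, whereas RD and HFD-O304 covered nearly the same range. Such a gap was found for 1.35% of all genes in HFD vs RD and for 6.17% in HFD-O304 vs HFD, and for 1 of the 10 disallowed genes in each. The log2 fold change was -0.67 in HFD vs RD (SE 0.11, interval -0.89 to -0.44, adjusted p = 0.00033) and 0.73 in HFD-O304 vs HFD (SE 0.11, interval 0.50 to 0.95, adjusted p = 1.82e-05). Between HFD-O304 and RD it was 0.059 (SE 0.11, interval -0.16 to 0.28, adjusted p = 0.878).

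The calls of Smad3 held without any single sample, with adjusted p from 0.000178 to 0.00137 (HFD vs RD) and from 9.29e-06 to 8.86e-05 (HFD-O304 vs HFD). Without HFD replicate 7, the sample that stood apart, the values were -0.68 (0.00023) and 0.74 (2.42e-05). Within replicates 1 to 4 they were -0.66 (adjusted p = 0.00781) and 0.84 (0.000392), and within replicates 5 to 7 they were -0.68 (0.0175) and 0.58 (0.0183), where fewer samples were tested.

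The Smad3 promoter, shown 5′ to 3′ because Smad3 was the gene called in both comparisons, lies at chr9:63757945-63758244 on the minus strand (GRCm38.p6). It held 2 GC boxes, in capitals, a motif found in 35.7% of promoters and in 7 of the 10 disallowed genes. CpG dinucleotides reached at least 0.6 of the number given by base composition in promoters of 8 of the 10 genes, as in 35.8% of all promoters, with medians of 0.68 over the 12 promoters of the 10 genes and 0.38 over all.
Smad3 promoter: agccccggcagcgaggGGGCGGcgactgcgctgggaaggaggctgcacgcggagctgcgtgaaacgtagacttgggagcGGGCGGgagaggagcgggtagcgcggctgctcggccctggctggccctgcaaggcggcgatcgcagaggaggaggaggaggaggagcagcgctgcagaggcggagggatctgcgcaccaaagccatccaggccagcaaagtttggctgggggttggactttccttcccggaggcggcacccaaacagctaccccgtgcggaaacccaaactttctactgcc

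Smad3 was measured beside 16 other genes of TGF-β and activin signalling. In HFD vs RD the ligand genes Tgfb3 (0.63, adjusted p = 0.000127), Inhba (1.48, 3.45e-05) and Inhbb (0.99, 0.00119) rose, opposite to Smad3, and Acvr1c, a receptor for activin-like ligands, fell (-0.72, 0.000987). In HFD-O304 vs HFD Tgfb3 (-1.13, 4.2e-09) and Inhba (-2.42, 5.61e-09) fell and the receptors Tgfbr1 (0.40, 7.39e-05) and Acvr1c (0.53, 0.00501) rose together with Smad2 (0.36, 3.4e-05), which serves beside Smad3. Tgfb3 was also lower in HFD-O304 than in RD islets (-0.50, 0.00241). Smad4, the shared partner, differed by -0.043 in HFD vs RD (adjusted p = 0.677) and by 0.10 in HFD-O304 vs HFD (0.120), and Smad7, an inhibitor, by -0.036 (0.891) and -0.040 (0.842).

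**Figure D4:**
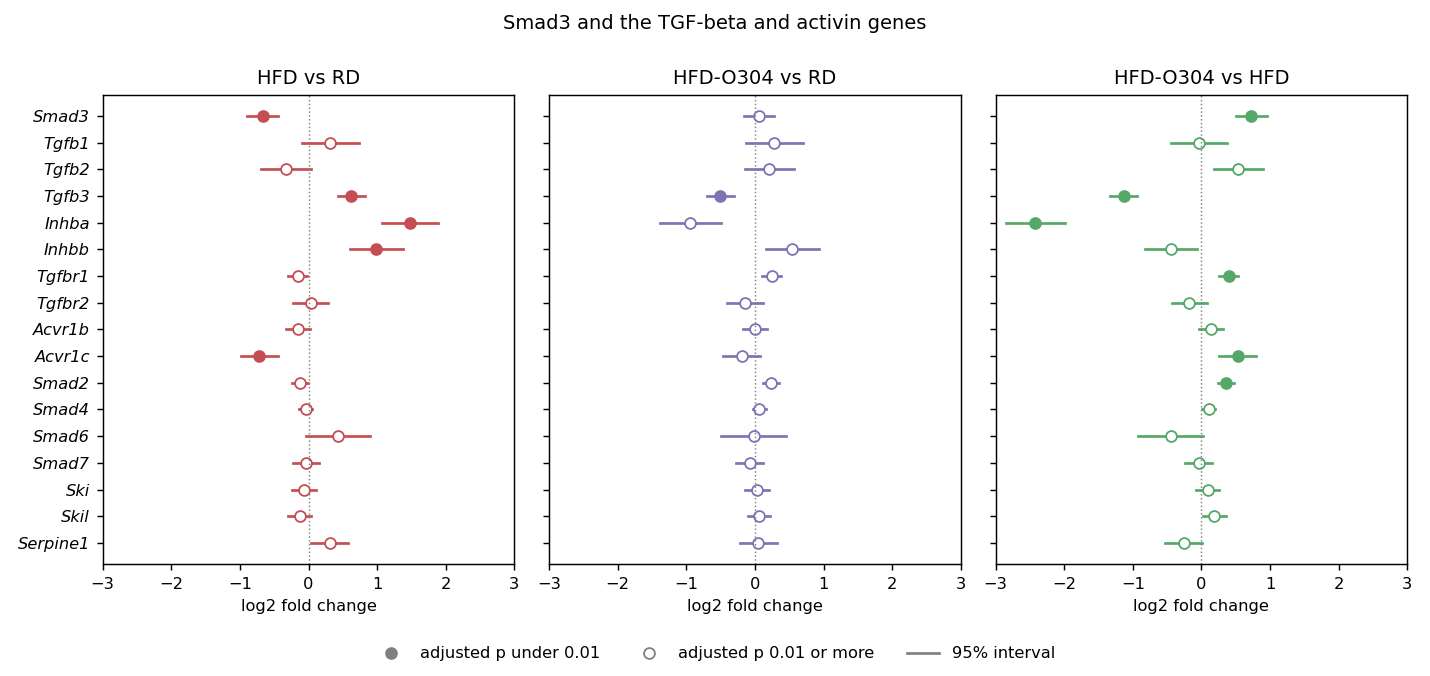
Log2 fold changes (x axis) with 95% intervals of Smad3 and 16 genes of TGF-β and activin signalling in the 3 comparisons, where filled points have an adjusted p under 0.01. Smad3 (-0.67) and Acvr1c (-0.72) lie left of 0 and Inhba (1.48) right of 0 in HFD vs RD, and the sides are exchanged in HFD-O304 vs HFD.

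Markers of α-cells moved in the same directions as Smad3. All 5 were lower in HFD vs RD, 4 of them called, with Gcg, the glucagon gene, at -1.01 (adjusted p = 7.27e-06), and all 5 rose in HFD-O304 vs HFD, with Gcg at 1.21 (2.55e-08). Their summed normalized count ranged from 785832 to 1004820 for RD, from 290931 to 610486 for HFD and from 821129 to 1107040 for HFD-O304, so that HFD did not overlap with either group. Sst, of δ-cells, differed by -0.66 (0.00646) and 0.88 (0.000109), and 2 of the 8 β-cell markers, Slc2a2 (-0.68, 0.000723) and Slc30a8 (-0.36, 0.0012), fell in HFD vs RD. In HFD-O304 vs HFD 3 of the 8 rose, Slc2a2 (0.74, 4.95e-05), Slc30a8 (0.53, 1.97e-06) and Ucn3 (0.52, 0.00137). There 2 fell, Ins1 (-0.20, 0.00749) and Ins2 (-0.23, 0.00149). The directions of Smad3 were thus shared by some β-cell markers and were not particular to α-cell markers. With α-cell markers as a covariate, chosen after the data were seen, Smad3 differed by -0.38 in HFD vs RD (adjusted p = 1) and by 0.34 in HFD-O304 vs HFD (0.954). By edgeR that fit called 0 and 10 of all genes in these comparisons, with 1221 and 1515 at an unadjusted p under 0.05. With pericyte markers as a covariate the values of Smad3 were -0.58 (0.154) and 0.55 (0.685). The markers and the groups differ together, and their parts in the change of Smad3 cannot be told apart. With group means removed, Smad3 and the α-cell markers had a Pearson r of 0.45 (permutation p = 0.0656, adjusted p = 0.292 over 110 pairs) and a Spearman rho of 0.40 (permutation p = 0.0922, adjusted p = 0.454). The r was 0.36 without the 2 farthest samples and 0.45 and 0.26 within the library sets.

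Zfp36l1, at chr12:80107754-80113013 on the minus strand, encodes a protein that binds AU-rich elements and speeds the decay of mRNA. Its normalized counts were 284, 322 and 436 in RD, 295, 377 and 446 in HFD, and 225, 264 and 336 in HFD-O304 islets. Every HFD-O304 sample was below the HFD median and 4 of 7 were below the lowest HFD sample, with overlap in the rest. On the log2 scale, the fold change was 0.18 in HFD vs RD (SE 0.11, adjusted p = 0.382), -0.27 in HFD-O304 vs RD (SE 0.11, adjusted p = 0.237) and -0.45 in HFD-O304 vs HFD (SE 0.11, interval -0.68 to -0.22, adjusted p = 0.00419). Its relatives Zfp36 and Zfp36l2 differed by 0.058 (adjusted p = 0.762) and 0.13 (0.408) in the last comparison, and edgeR and DESeq2 called 0 of both genes in each comparison, with 0 at an unadjusted p under 0.05.

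The call of Zfp36l1 held in 8 of the 14 fits that left out 1 sample. It was lost without HFD replicate 3 (-0.42, adjusted p = 0.0108), HFD replicate 5 (-0.43, 0.0109), HFD replicate 6 (-0.41, 0.0115), HFD-O304 replicate 1 (-0.41, 0.0121), HFD-O304 replicate 2 (-0.41, 0.0103) or HFD-O304 replicate 5 (-0.44, 0.0102). Of its exons 55.9% lie opposite to those of Gm26669, and with counts that ignore strand the value was -0.54 (0.0335). Its promoter at chr12:80112964-80113263 on the minus strand (GRCm38.p6), shown 5′ to 3′ because Zfp36l1 was the other gene called, holds a TATA box (TATAAA, in capitals), a motif on either strand of 13.6% of promoters and of 2 of the 10 disallowed genes, the other being Igfbp4.
Zfp36l1 promoter: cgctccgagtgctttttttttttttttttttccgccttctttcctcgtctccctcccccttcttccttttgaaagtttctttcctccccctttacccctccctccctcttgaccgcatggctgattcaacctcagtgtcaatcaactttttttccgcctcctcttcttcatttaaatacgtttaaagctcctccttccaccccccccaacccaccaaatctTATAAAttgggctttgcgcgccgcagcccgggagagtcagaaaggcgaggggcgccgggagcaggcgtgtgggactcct

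Pericyte and stellate cell markers moved in the same direction as Zfp36l1. All 5 fell in HFD-O304 vs HFD, with Acta2, the smooth muscle actin, at -1.73 (adjusted p = 2.63e-08) and Rgs5 at -1.15 (7.67e-08), and their summed normalized count ranged from 10849 to 17702 for HFD and from 5689 to 8714 for HFD-O304, without overlap. With these markers as a covariate, chosen after the data were seen, Zfp36l1 differed by 0.11 (0.953), and that fit called 5 of all genes. Of 8 endothelial markers 7 had values below 0 and 1 above 0, and the 2 called, Pecam1 (-0.50, 6.14e-06) and Cdh5 (-0.55, 0.000202), fell. As a covariate the endothelial markers left -0.28 (0.0881) and fibroblast markers left -0.36 (0.0587). With group means removed, Zfp36l1 had a Pearson r of 0.56 with endothelial markers (permutation p = 0.0118, adjusted p = 0.151 over 110 pairs) and a Spearman rho of 0.54 (permutation p = 0.0165, adjusted p = 0.230). The r was 0.55 without the 2 farthest samples and 0.46 and 0.80 within the library sets. With pericyte and stellate cell markers the r was 0.53 (permutation p = 0.0203, adjusted p = 0.203) and rho 0.51 (permutation p = 0.0292, adjusted p = 0.292). With duct markers the r was 0.37 and rho 0.55 (permutation p of rho = 0.0155, adjusted p = 0.230).

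**Figure D5:**
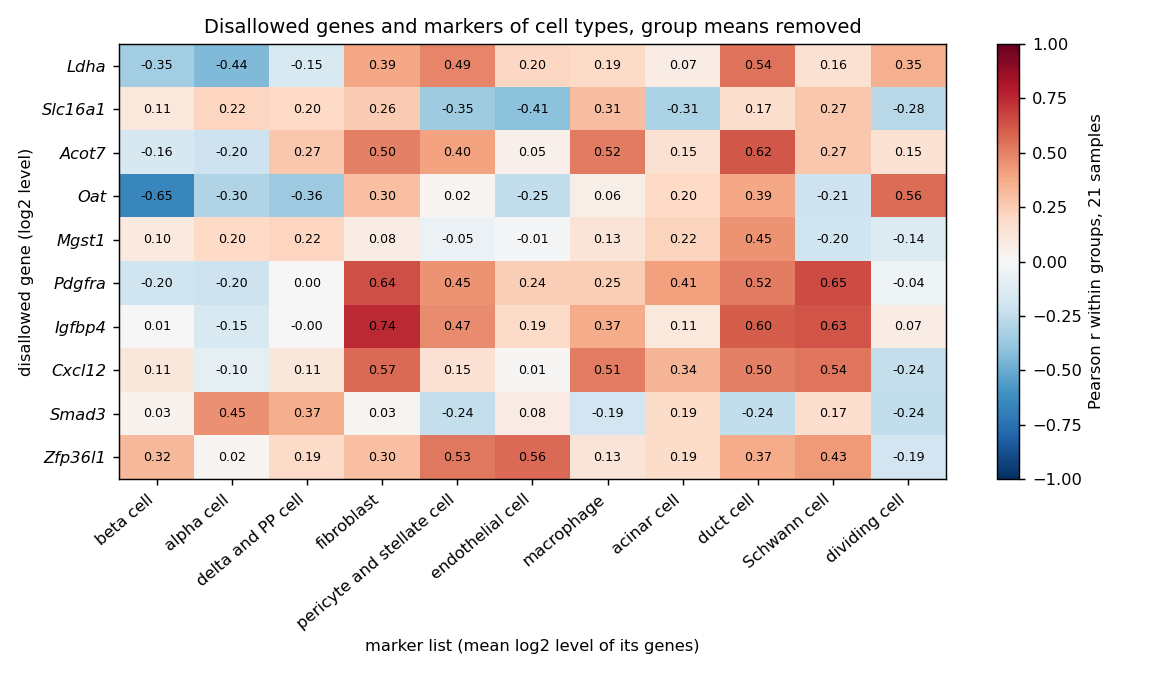
Pearson r over 21 samples, with group means removed, between the log2 level of each disallowed gene (rows) and the mean log2 level of markers of 11 cell types or states (columns). The values run from -0.65 (Oat and β-cell markers) to 0.74 (Igfbp4 and fibroblast markers), and Smad3 reaches 0.45 with α-cell markers.

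Genes of DNA methylation and Polycomb repression, chromatin marks that can keep genes silent, made a list of 13. Ezh1 fell in HFD vs RD (-0.27, adjusted p = 0.00727). For HFD-O304 vs HFD Ezh1 (0.39, 4.35e-05), Bmi1 (0.28, 0.00462) and Dnmt3a (0.34, 0.00632), a DNA methyltransferase, rose and Ezh2, the catalytic subunit used by dividing cells, fell (-0.64, 0.000411). All 5 markers of dividing cells had likewise fallen there, Mki67 by 2.44 on the log2 scale (4.39e-07). Of 15 further genes named as disallowed elsewhere, 1 was called in HFD-O304 vs HFD, Zyx (-0.54, 0.000285), and 1 in HFD-O304 vs RD, Arap2 (-0.46, 0.00785). In HFD vs RD edgeR called 0 and DESeq2 1 of the 15, with 3 at an unadjusted p under 0.05.

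The genes whose levels over the 21 samples were most like those of a disallowed gene, among 13216 whose mean normalized count was 50 or more, are given as a description. For Smad3 they were Ank2 (Pearson r 0.93), Dennd2a (0.92) and Galnt13 (0.92), for Oat Nrd1 (0.89), Ganab (0.88) and Pdia3 (0.87), and for Ldha C3 (0.89) and Csrp1 (0.88). Zfp36l1 was most like Rasd2 (0.88), Cmtm8 (0.87) and Daam2 (0.85), and Mgst1 most like Scara3 (0.88), Ces1d (0.87) and Alb (0.87). Acot7 came with H2-Eb1 (0.84), Csf1r (0.79) and Cp (0.77), and Igfbp4 with the matrix genes Col1a1 (0.82), Col16a1 (0.79) and Fbln2 (0.78). Cxcl12 was nearest to Ifngr1 (0.78), Lyz2 (0.77) and Fxyd3 (0.73), Pdgfra to Sfrp1 (0.77), Col28a1 (0.71) and Erbb3 (0.71), and Slc16a1 to Traf6 (0.73), Miga1 (0.73) and Pik3c3 (0.72). These values include the differences between groups. Within groups the r of Smad3 and Ank2 was 0.65, whereas that of Ldha and Csrp1 was 0.92. Among the disallowed genes themselves the highest r within groups were those of Pdgfra with Igfbp4 (0.75) and of Ldha with Oat (0.68).

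The library numbers in the labels place replicates 1 to 4 and 5 to 7 in separate blocks, and the difference of each effect between them was tested. By edgeR's interaction test 0 of the 10 genes passed an adjusted p of 0.01 in any comparison, with 0 at an unadjusted p under 0.05 and the smallest unadjusted p being 0.163 for Smad3 in HFD-O304 vs RD. Of all genes 0 passed, with 1862, 1516 and 1314 at an unadjusted p under 0.05 in HFD vs RD, HFD-O304 vs RD and HFD-O304 vs HFD.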

How the data were processed

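Whole-islet RNA of 21 samples (7 per group, 5 mice pooled per sample) was sequenced as 50 nt paired-end reads. The authors aligned the reads with STAR to GRCm38 and deposited read counts per Ensembl gene in 3 strand settings per sample. Versions of STAR are not given in the sources used here. The column of the strand that held 28.8 to 36.3 times as many read pairs as the opposite one was used, and reads assigned to no gene (18.5 to 24.9% of read pairs) were left out. Genes with at least 10 reads over all samples (27229 of 55536) entered edgeR 4.0.16 (R 4.3.3): TMM scaling, a quasi-likelihood fit over all 3 groups, Benjamini-Hochberg adjustment over all genes and a threshold of 0.01. DESeq2 1.42.0 was an alternative, and its size factors gave the normalized counts shown. TPM were computed from these counts and exon lengths of GENCODE M21. Correlations used 100000 permutations, two-sided, on log2(normalized count + 1) with group means removed (Python 3.11.15, numpy 2.4.6, pandas 2.3.3, scipy 1.17.1, matplotlib 3.10.9).

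Groups and replicate numbers came from sample titles, except that the group of HFD replicate 3 was taken from its diet field. Samples were pools, and p-values measure the spread between these pools. No sample pair agreed within sampling noise (chi-square per gene 8.05 to 101). The fitting script was tested on simulated data. Promoter and microRNA sequences came from RefSeq (GRCm38.p6). Named were the 10 disallowed genes, up to 4 called genes of each pathway list by smallest adjusted p with fixed partner genes, defining marker genes, and for each disallowed gene the 3 genes of highest Pearson r. Some items under this rule are not reported here. Further list genes named were chosen after their values were seen. The disallowed genes and lists were chosen with earlier results of these data known. Alternatives were another scaling, tool, filter, strand setting, sample set, block, library set or marker covariate, and leaving out each sample. The α-cell, pericyte and duct covariates and the fit without HFD-O304 replicates 1 and 2 were added after the data were seen.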

Additional observations from a re-analysis of the deposited data

Results flagged for a closer look

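Among 30 groups of 7 samples (10 disallowed genes in 3 diet groups), 4 held a sample whose gap to its nearest neighbour took an unusually large share of the range of the group. The cut used flags about 1 in 20 groups of normally distributed values. These were counts, and the 10 genes shared the same samples, so that rate need not hold here. HFD-O304 replicate 4 was the sample in 3 of the 4. Its normalized count was 296 for Acot7, where the next sample had 197. For Mgst1 it was 148, with the next sample at 101.4, and for Igfbp4 it was 235, with the next at 165. This sample also had the highest mean log2 level of its group in fibroblast (8.41, next 7.07), duct (9.56, next 9.001) and macrophage markers (8.07, next 7.78), whose part in these values was not tested. The fourth was Pdgfra in RD replicate 2, with a normalized count of 7.65 and the next sample at 2.20, a gene with 69 reads in all. The cause was not tested.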

How the results depend on the processing

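Of 944 log2 fold changes of the disallowed genes under alternatives, 851 kept their direction and side of the threshold, 19 lost the call, 21 gained one and 53 changed sign. Of these 53, 1 was called before, Zfp36l1 in HFD-O304 vs HFD at 0.11 with the pericyte covariate, and 0 passed the edgeR threshold after the change. The causes were not tested. In HFD vs RD 0 disallowed genes were called by edgeR within replicates 5 to 7 and with the α-cell or the pericyte covariate. In HFD-O304 vs RD 1 was called by DESeq2 (727 of all genes), with the compared groups only (483) and with the replicate block (543). At an adjusted p under 0.05 it was 2 (785 of all genes). In HFD-O304 vs HFD 5 were called by DESeq2 (4045 of all genes) and at an adjusted p under 0.05 (5150), and 4 with the replicate block (3763). The count was 1 with unstranded counts (3102 of all genes), within replicates 1 to 4 (2001) and with the endothelial covariate (2601). It was also 1 without HFD-O304 replicates 1 and 2 (2528). It was 0 within replicates 5 to 7 (1456 of all genes) and with the α-cell (10) or pericyte (5) covariate. Leaving out 1 sample at a time gave 1, 0 and 1 to 4 called disallowed genes in HFD vs RD, HFD-O304 vs RD and HFD-O304 vs HFD.

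Of all genes, 963, 356 and 3230 were called in these comparisons. In HFD vs RD the count was 1758 by DESeq2, 627 with the compared groups only, 1577 with the replicate block, 1611 with library set as covariate, 563 and 307 within each library set, 217 with the fibroblast, 0 with the α-cell and 8 with the pericyte covariate, 2148 at an adjusted p under 0.05, and 589 to 1594 without 1 sample (589 without RD replicate 7, 599 without HFD replicate 4, 1594 without HFD replicate 7). In HFD-O304 vs RD it was 727, 543 with the block and 543 with library set, 85 and 228 within sets, 132, 28 and 177 with the α-cell, pericyte and duct covariates, 785 at 0.05, 185 without HFD-O304 replicates 1 and 2, and 221 to 369 without 1 sample (221 without RD replicate 3, 225 and 235 without HFD-O304 replicates 5 and 1). In HFD-O304 vs HFD it was 2001 and 1456 within sets, 1865, 10, 5 and 1940 with the fibroblast, α-cell, pericyte and duct covariates, 5150 at 0.05, and 2643 to 3578 without 1 sample. Same-numbered samples did not all deviate together (mean r 0.20, 0.29 and 0.14 over 7 pairs, over 0.1 in 4, 6 and 5). The 14 samples of each comparison gave 42 checks over the 3 comparisons, each sample being checked more than once. In 16 of the 42 a sample correlated best with its own number among 7 candidates. A part shared by same-numbered samples was thus not excluded. The main fit did not take the numbers as pairs and leaves any such part in the spread between samples. The replicate block is given as an alternative. Among replicates 5 to 7, 8 of 9 correlations were over 0.1. With the replicate block Oat in HFD-O304 vs RD (-0.38, adjusted p = 0.00328), and Oat (-0.38, 0.000517) and Mgst1 (0.69, 0.00739) in HFD-O304 vs HFD, passed 0.01. Depth limits Pdgfra (69 reads) and Slc16a1 (698 reads) most.

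For HFD vs RD the values of other sign were, within replicates 1 to 4 Mgst1 -0.045, within replicates 5 to 7 Oat -0.055, with the fibroblast covariate Acot7 -0.11, Oat -0.064 and Pdgfra -0.63, with the α-cell covariate Ldha -0.11, Acot7 -0.14, Oat -0.25 and Pdgfra -0.66, with the pericyte covariate Ldha -0.029, Acot7 -0.18, Pdgfra -2.06, Igfbp4 -0.051 and Zfp36l1 -0.091. For HFD-O304 vs RD the values of other sign were, within replicates 5 to 7 Cxcl12 -0.015 and Smad3 -0.094, with the endothelial covariate Slc16a1 -0.098, with the α-cell covariate Ldha 0.029, Slc16a1 -0.047 and Smad3 -0.043, with the pericyte covariate Ldha 0.16, Slc16a1 -0.26, Smad3 -0.034 and Zfp36l1 0.018, with the duct covariate Slc16a1 -0.070, Pdgfra -1.22, Igfbp4 -0.32 and Cxcl12 -0.31, without HFD-O304 replicates 1 and 2 Slc16a1 -0.012. For HFD-O304 vs HFD the values of other sign were, with the fibroblast covariate Igfbp4 0.059 and Cxcl12 0.031, with the α-cell covariate Ldha 0.14 and Cxcl12 0.0041, with the pericyte covariate Ldha 0.19, Slc16a1 -0.031, Igfbp4 0.47, Cxcl12 0.10 and Zfp36l1 0.11, with the duct covariate Pdgfra -2.35. Leaving out 1 sample at a time gave -0.055 to 0.20 for Mgst1 in HFD vs RD (sign changed without each of RD replicate 1, HFD replicate 6 and HFD replicate 7), -0.059 to 0.072 for Oat in HFD vs RD (sign changed without each of RD replicate 5, RD replicate 7, HFD replicate 1 and HFD replicate 4), -0.0056 to 0.085 for Acot7 in HFD vs RD (sign changed without HFD replicate 6), -0.036 to 0.19 for Slc16a1 in HFD-O304 vs RD (sign changed without each of HFD-O304 replicate 1, HFD-O304 replicate 4 and HFD-O304 replicate 5), -0.052 to 0.16 for Igfbp4 in HFD-O304 vs RD (sign changed without HFD-O304 replicate 4), -0.12 to 0.15 for Cxcl12 in HFD-O304 vs RD (sign changed without HFD-O304 replicate 4), -0.39 to 1.10 for Pdgfra in HFD-O304 vs HFD (sign changed without HFD-O304 replicate 4).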
